A study of Mus musculus with 6 samples.

Results

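The FGF receptors Fgfr1, Fgfr2 and Fgfr3, the ErbB receptors Egfr, Erbb2 and Erbb3, and the EGF-type ligands Areg, Ereg, Hbegf and Tgfa were followed in bladders of mouse embryos with and without Klf5. These 10 genes were chosen by name, and a gene counted as measured where an array feature carried its symbol alone. By that rule 9 of the 10 genes were measured, each by 1 feature, among 19938 genes tested in all. Areg, which codes for amphiregulin, was not analysed here.

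Both receptor families are tyrosine kinases of the cell surface that pair when a ligand binds and then signal largely through RAS and the MAP kinases. FGFs often pass between mesenchyme and epithelium in developing organs, and the receptors' splice forms decide which FGF each tissue can bind. EGF-type ligands are made as membrane precursors and cut free by proteases, and ErbB signals support the growth and repair of urothelium, the epithelium that lines the bladder. FGFR3 is known in this tissue as a gene often mutated in urothelial tumours.

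The study compared 3 samples labelled Klf5 ∆/∆, here called Klf5-deleted, with 3 control samples labelled Klf5+/+ShhGfpCre+, all of embryonic stage E14.5, and each sample pooled 2 whole bladders. The product of Klf5 is a Krüppel-like transcription factor active in epithelia, and the question was which transcripts of the developing urothelium depend on it. ShhGfpCre produces Cre recombinase wherever Shh is active, this epithelium included, from an insertion that disrupts the Shh copy it sits in. The Klf5-deleted embryos were taken to carry it too, with the deletion limited to cells of Shh-expressing descent, so other cells of the bladder were taken to keep Klf5. The labels call the tissue urothelium in one place and whole bladder in others. Whole bladder also holds muscle, connective tissue, vessels, blood and nerve, and defining markers of smooth muscle and mesenchyme read high on every array (Acta2 13.97 to 14.16, Vim 13.59 to 13.81). Every level given is a log2 value made by RMA, which corrects, normalizes and summarises array signals, and every difference is Klf5-deleted minus control on that log2 scale. Features differ in how brightly they bind, so the level of one gene was not ranked against another, and differences of 2 genes within an array were used only to compare the genotypes.

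In the bladders labelled Klf5-deleted, Klf5 itself read 10.12, 10.34 and 10.23, against 10.84, 10.63 and 10.97 in controls. It fell by 0.59 (SE 0.10, adjusted p = 0.0381 by limma), a call lost with each array centred on its median (adjusted p = 0.061 by limma) and when any single array other than control 2 was left out (adjusted p 0.0847 to 0.156 by limma). Over all genes limma placed 395 past an adjusted p of 0.05, with 318 falls and 77 rises, or 141 to 349 genes when 1 array was left out. Centring each array on its median gave 273 falls and 116 rises, and centring on the mean of 9 housekeeping genes gave 273 falls and 118 rises. The trophoblast list (Tpbpa, Prl8a9, Prl8a2 and Ctsq, 4 of 8 listed genes measured) averaged 10.78 on control 2, while the remaining 5 arrays lay between 5.49 and 7.97. Values without control 2 are given below for Fgfr3, Erbb3, Tgfa and Ereg.

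Fgfr3 was the 1 gene of the 9 that passed the test, and it fell; no receptor or ligand of the set rose past the threshold. The adjusted p was under 0.05 for 1.98% of all genes in either direction, and 1.59% fell, so 1 gene of 9 gives little basis for reading the set as a whole. At an unadjusted p under 0.05 the set held 2 genes, Fgfr3 and Erbb3, both lower, where 14.4% of all genes passed that mark. The 2 groups of arrays did not overlap for 1 of the 9 genes, Fgfr3, against 20.5% of all genes. The median difference of the 9 genes was -0.0755, beside -0.0099 for all genes, with 6 genes lower and 3 higher.

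**Figure D1:**
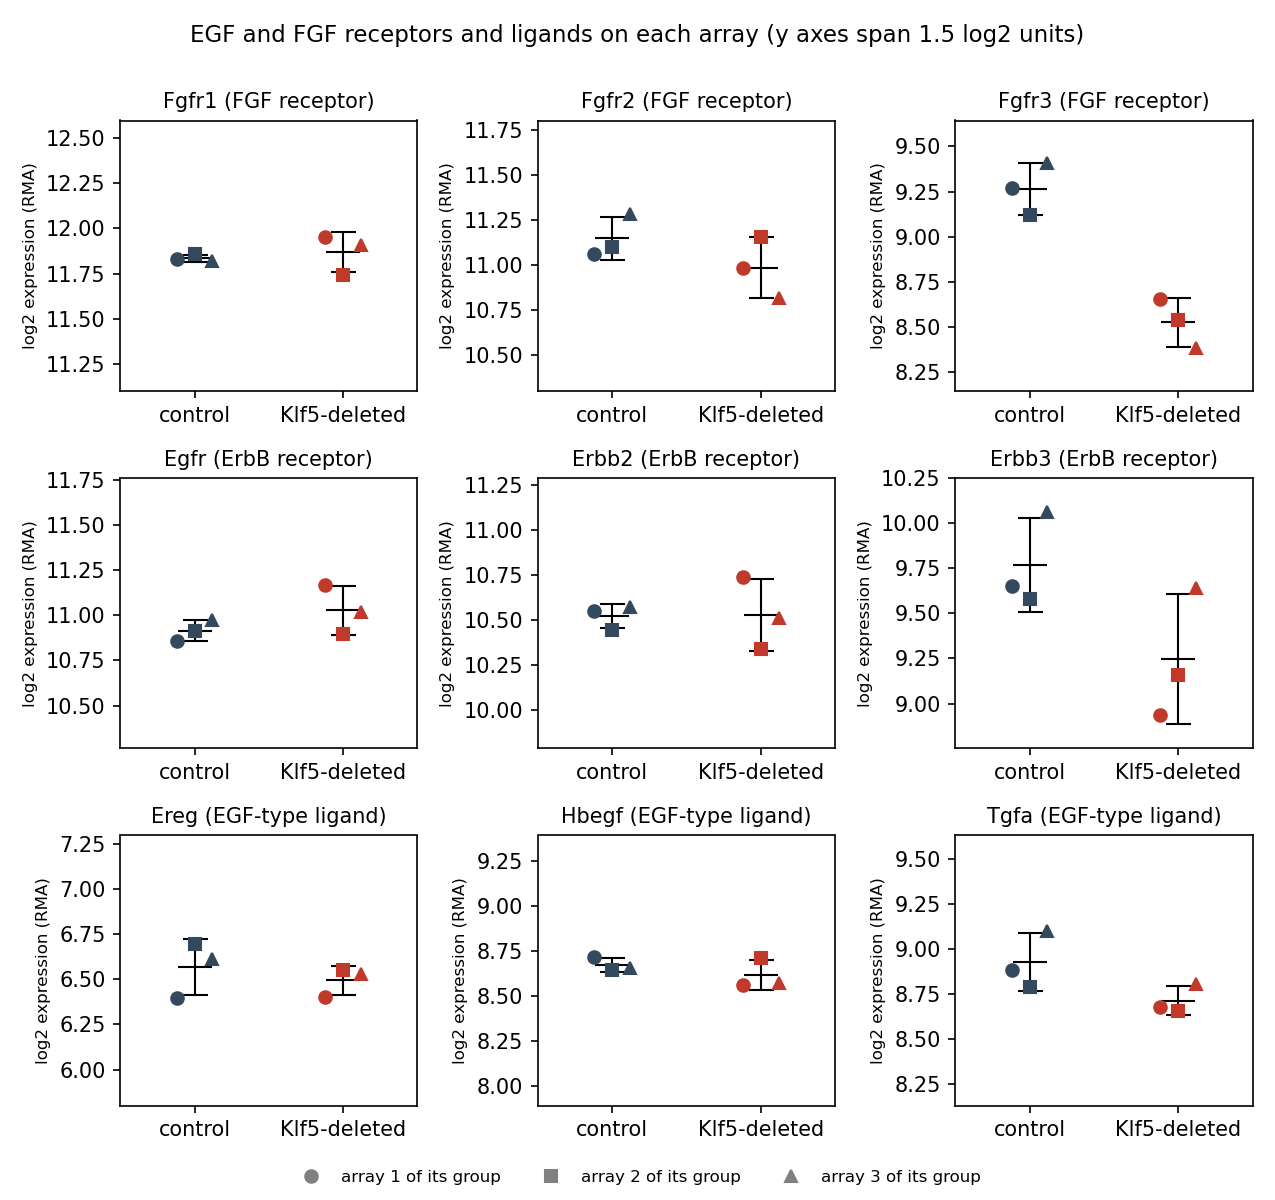
Each panel plots the log2 expression of 1 gene on the 3 control and 3 Klf5-deleted arrays, with symbols for the array number, a horizontal bar for the group mean and whiskers of 1 SD (n = 3); every y axis spans 1.5 log2 units. Fgfr3 is the 1 panel in which all 3 Klf5-deleted arrays (8.38 to 8.65) lie below all 3 controls (9.12 to 9.41), and Erbb3 shows the widest scatter.

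Among the FGF receptors, Fgfr3, whose product binds several FGFs and is made in many epithelia, read 8.65, 8.54 and 8.38 in Klf5-deleted bladders. The controls read 9.27, 9.12 and 9.41, so the lowest control stood above the highest Klf5-deleted array. The group means were 8.52 ± 0.14 (SD, n = 3) and 9.26 ± 0.14 (SD, n = 3). The log2 difference was thus -0.74, which is 1.67-fold lower (SE 0.10, 95% confidence interval -0.98 to -0.50, adjusted p = 0.0145 by limma). The difference was -0.81 without control 2 (adjusted p = 0.0113 by limma). The call was lost without Klf5-deleted 2 (difference -0.75, adjusted p = 0.0665 by limma) and without control 1 (-0.74, adjusted p = 0.0672 by limma), although the size of the difference hardly moved. In whole bladders, fewer cells that make Fgfr3 and less Fgfr3 RNA in each such cell cannot be told apart.

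Because the deleted gene codes for a DNA-binding protein and Fgfr3 was the receptor that fell, the stretches just upstream of its transcript starts are shown. RefSeq (GRCm38.p6) gave 2 starts on the plus strand of chromosome 5, and the 250 bases before each are printed 5′ to 3′. Capitals mark the GC box GGGCGG or its reverse complement CCGCCC, a motif that factors of the KLF and SP families are known to bind. The first window is chr5:33721474-33721723 and the second chr5:33722056-33722305. The second window thus lies downstream of the first start.
Fgfr3 window 1: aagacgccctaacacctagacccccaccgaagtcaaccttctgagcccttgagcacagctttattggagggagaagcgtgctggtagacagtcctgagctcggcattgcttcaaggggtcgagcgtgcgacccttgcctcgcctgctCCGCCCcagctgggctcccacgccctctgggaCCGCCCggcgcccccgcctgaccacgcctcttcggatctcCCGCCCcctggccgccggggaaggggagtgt
Fgfr3 window 2: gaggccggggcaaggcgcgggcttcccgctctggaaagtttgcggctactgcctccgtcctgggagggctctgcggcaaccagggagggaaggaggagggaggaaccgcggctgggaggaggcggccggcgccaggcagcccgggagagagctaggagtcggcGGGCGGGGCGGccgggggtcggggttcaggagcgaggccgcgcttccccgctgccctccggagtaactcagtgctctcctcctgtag
Window 1 held 3 matches and window 2 held 2, which share 1 letter. A second KLF-type motif, CACCC or its reverse complement GGGTG, had no match in either window. Of all 32851 windows of this length in the RefSeq table, 32.7% held at least 1 GC box and 52.0% at least 1 CACCC match. G and C made up 66.8% and 72.8% of the letters of these windows. The windows of Egfr and Tgfa held 1 and 2 GC boxes, and those of Fgfr2 and Erbb2 held none. CACCC matches numbered 4 for Erbb2, 1 each for Egfr and Tgfa, and 0 for Fgfr2. Windows of Fgfr1, Erbb3, Hbegf and Ereg were not used here, so the windows do not cover all measured genes of the set. A match is a run of letters and not a measured binding site, and no match says only that the letters are not in this window.

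Fgfr1, a receptor prominent in mesenchyme, read 11.95, 11.74 and 11.91 in Klf5-deleted and 11.83, 11.86 and 11.82 in control bladders. The Klf5-deleted arrays lay on both sides of the controls, and the difference was 0.03 (95% confidence interval -0.14 to 0.21, adjusted p = 0.894 by limma), or -0.0087 without Klf5-deleted 1 and 0.10 without Klf5-deleted 2. Fgfr2, whose epithelial splice form binds Fgf7 and Fgf10 from the mesenchyme, read 10.98, 11.15 and 10.82 against 11.06, 11.10 and 11.28. Its groups overlapped through Klf5-deleted 2, and the difference was -0.16 (95% confidence interval -0.40 to 0.08, adjusted p = 0.549 by limma). It was -0.08 without Klf5-deleted 3, -0.09 without control 3 and -0.25 without Klf5-deleted 2. An array feature gives 1 value for a gene, so the splice forms of Fgfr2 were not separated. These intervals do not reach the size seen for Fgfr3, but they describe whole bladders, where epithelial and other cells were not measured apart. A change of Fgfr1 or Fgfr2 confined to epithelium was therefore not tested.

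Within each array the level of Fgfr3 was set against that of another gene to ask whether the 2 genes changed unequally. Fgfr3 minus Fgfr1 averaged -2.57 ± 0.16 (SD, n = 3) in controls and -3.34 ± 0.16 (SD, n = 3) in Klf5-deleted bladders, a shift of -0.77 between the genotypes. Fgfr3 minus Fgfr2 shifted by -0.58, from -1.88 ± 0.09 (SD, n = 3) in controls to -2.46 ± 0.15 (SD, n = 3). In both ratios the 3 arrays of one genotype lay apart from the 3 of the other. The two-sided exact permutation test over arrays gave p = 0.1 for each, the smallest value that 3 against 3 allows, or 0.125 adjusted over 5 such comparisons by Benjamini-Hochberg. The design therefore cannot place an unequal change of 2 single genes past 0.05 by this test.

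**Figure D2:**
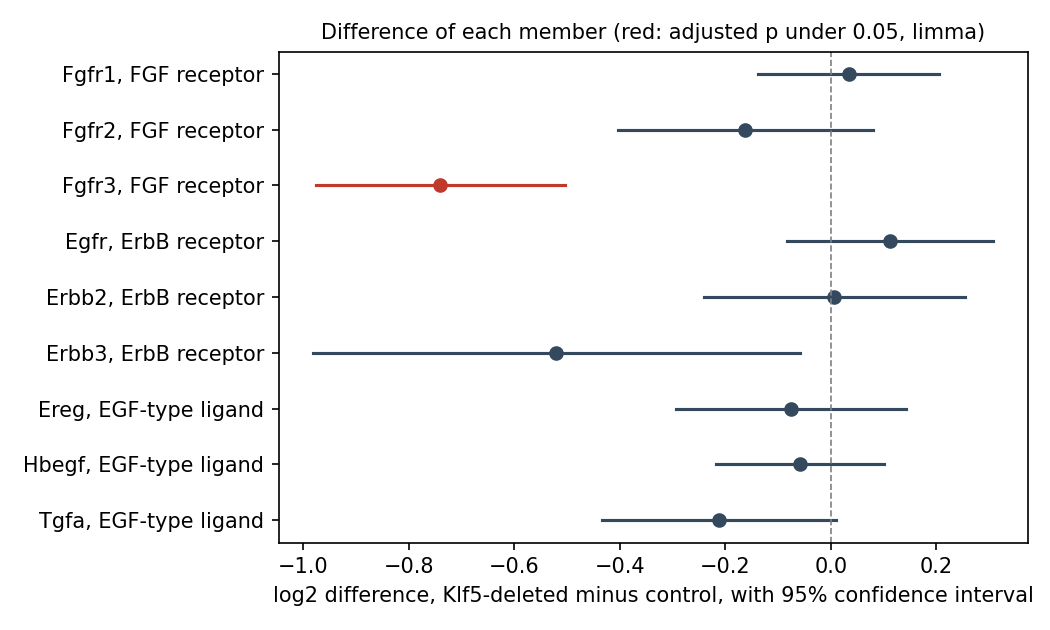
Points give the log2 difference (Klf5-deleted minus control) of each of the 9 measured genes and lines its 95% confidence interval from limma, with 3 arrays per group; red marks an adjusted p under 0.05. The interval of Fgfr3 runs from -0.98 to -0.50, Erbb3 has the widest interval (-0.98 to -0.06), and the other 7 intervals include 0.

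Among the ErbB receptors no gene passed the threshold. Erbb3, a receptor for neuregulins that has little kinase activity of its own and signals through a partner, read 8.94, 9.16 and 9.64 in Klf5-deleted bladders. The controls read 9.65, 9.58 and 10.06, so Klf5-deleted 3 stood above the lowest control while the other Klf5-deleted arrays lay below all controls. The difference was -0.52 (SE 0.20, 95% confidence interval -0.98 to -0.06, unadjusted p = 0.0321, adjusted p = 0.29 by limma). It was -0.72 without Klf5-deleted 3, -0.61 without control 2 and -0.37 without Klf5-deleted 1 or without control 3, and passed in none of these fits. The scatter of Erbb3 within groups was an SD of 0.31, larger than that of 96.5% of all genes.

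Egfr, the receptor of the EGF-type ligands of the set, read 11.17, 10.90 and 11.02 in Klf5-deleted and 10.86, 10.91 and 10.97 in control bladders. Its groups overlapped, with a difference of 0.11 (95% confidence interval -0.08 to 0.31, adjusted p = 0.618 by limma), or 0.04 without Klf5-deleted 1 and 0.18 without Klf5-deleted 2. Erbb2, which binds no known ligand and serves as the preferred partner of the other ErbB receptors, read 10.74, 10.34 and 10.51 against 10.55, 10.45 and 10.57. All 3 controls lay inside the range of the Klf5-deleted arrays, and the difference was 0.01 (95% confidence interval -0.24 to 0.25, adjusted p = 0.989 by limma), of either sign when 1 array was left out. Set against its partners within each array, Erbb3 shifted by -0.53 relative to Erbb2 (exact permutation p = 0.2, adjusted p = 0.2 over the 5 comparisons) and by -0.63 relative to Egfr (exact permutation p = 0.1, adjusted p = 0.125). The Erbb3 to Erbb2 shift was -0.27 without Klf5-deleted 1.

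Erbb3 and its relative Erbb4 are also made outside epithelium, Erbb3 in glia of peripheral nerve, and values of other tissues differed between the arrays. Of the neuron and glia list 6 of 8 genes were measured; none passed, and the list averaged 8.22 to 8.56 in Klf5-deleted and 8.21 to 8.69 in control bladders. Sox10, a defining gene of peripheral glia, read 7.98, 7.87 and 8.16 in Klf5-deleted and 7.74, 7.95 and 7.73 in control bladders, a difference of 0.20. Of the other 5 measured genes 3 were lower: Ednrb, a receptor of neural crest cells, differed by -0.40 with no overlap (adjusted p = 0.0747 by limma), and Fabp7 and S100b by -0.20 and -0.11. A skeletal muscle list of 10 genes, added after values of these arrays were seen, averaged 10.15 on Klf5-deleted 3, 9.004 and 9.255 on the other Klf5-deleted arrays, and 8.23 to 9.30 in controls. All 10 muscle genes were higher in the Klf5-deleted group and none passed. An unadjusted p under 0.05 by limma was reached by 5 of the 10, beside 14.4% of all genes. Erbb4, a neuregulin receptor, and Fgfr4, an FGF receptor of muscle precursors, were likewise highest on Klf5-deleted 3: Erbb4 read 7.80 there and 6.64 to 7.06 elsewhere, and Fgfr4 9.13 there and 8.33 to 8.55 elsewhere. The part of nerve or muscle in the readings of these receptors was not tested.

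None of the 3 measured EGF-type ligands passed the threshold, and all 3 were lower by small amounts. Tgfa, the ligand TGF-alpha, read 8.68, 8.66 and 8.80 in Klf5-deleted and 8.88, 8.79 and 9.10 in control bladders. Only Klf5-deleted 3 and control 2 overlapped, by less than 0.1, and the difference was -0.21 (SE 0.09, 95% confidence interval -0.43 to 0.01, unadjusted p = 0.0587, adjusted p = 0.368 by limma). Without control 2 the difference of Tgfa was -0.28 and without control 3 it was -0.12, with adjusted p of 0.29 and 0.607 by limma.

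Hbegf, a heparin-binding ligand of Egfr and Erbb4, read 8.56, 8.71 and 8.57 in Klf5-deleted and 8.72, 8.64 and 8.66 in control bladders. Its difference was -0.06 (95% confidence interval -0.22 to 0.10, adjusted p = 0.772 by limma), between -0.11 and -0.03 when 1 array was left out, and it was the steadiest gene of the set, with a within-group SD of 0.07. Ereg, which codes for epiregulin, read 6.40, 6.55 and 6.53 against 6.40, 6.70 and 6.61. Its groups overlapped throughout, with a difference of -0.08 (95% confidence interval -0.29 to 0.14, adjusted p = 0.785 by limma), or -0.01 without control 2 and -0.16 without control 1. RMA compresses the differences of dim features, and whether Ereg stood above background could not be told from these values.

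The rest of both pathways was read from a list of 83 further genes, of which 77 were measured. A single one passed the threshold: Cblc, whose product is a ubiquitin ligase of the CBL family made in epithelia that acts on activated Egfr, fell. No gene of the list rose past an adjusted p of 0.05 by limma, while 7 were higher and 6 lower at an unadjusted p under 0.05, together 13 of 77. Groups did not overlap for 16 of the 77 genes. Both counts lay near the shares over all genes, 14.4% at an unadjusted p under 0.05 and 20.5% without overlap. The median difference was 0.0045, with 37 genes lower and 40 higher.

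Cblc read 7.73, 7.69 and 7.64 in Klf5-deleted and 8.51, 8.42 and 8.39 in control bladders, with a gap between the groups wider than the spread inside either. The log2 difference was -0.75, which is 1.68-fold lower (SE 0.06, adjusted p = 0.00246 by limma). The call held without each array in turn, with adjusted p of 0.00544 to 0.0189 by limma.

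The 15 inhibitors of the pathways included Cblc and otherwise did not pass. An unadjusted p under 0.05 by limma was reached by 5 of the 15, 3 higher and 2 lower, beside 14.4% of all genes. Groups did not overlap for 5 of the 15, beside 20.5% of all genes. Spry2, an inhibitor that FGF and EGF signals switch on, read 8.85, 9.20 and 9.09 in Klf5-deleted and 8.62, 8.53 and 8.35 in control bladders, all higher in Klf5-deleted bladders. Its difference was 0.55 (SE 0.11, adjusted p = 0.0614 by limma), or 0.59 with each array centred on its median, where it passed (adjusted p = 0.0431 by limma). Spred1 and Spred3, related inhibitors, differed by 0.27 and 0.17, and Errfi1, which binds and blocks Egfr, by -0.18. The adjusted p of these genes was 0.235, 0.339 and 0.273 by limma. Spry1, Spry4 and Dusp6 differed by -0.03, -0.15 and 0.06, with adjusted p of 0.611 to 0.929 by limma.

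None of the 22 FGF ligand genes passed, and 12 were higher and 10 lower. The largest difference was that of Fgf6, a ligand of developing muscle, at 0.36 (SE 0.12, adjusted p = 0.246 by limma). Fgf9 differed by 0.26 and Fgf8 by -0.21, with adjusted p of 0.155 and 0.263 by limma. An unadjusted p under 0.05 by limma was reached by 3 of the 22 genes, beside 14.4% of all genes. The mesenchymal ligand genes Fgf7 and Fgf10 differed by -0.11 and 0.18 (SE 0.20 and 0.16).

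Of the 7 other EGF-type ligands and neuregulins none passed. An unadjusted p under 0.05 by limma was reached by 2 of the 7, beside 14.4% of all genes. Nrg2 differed by -0.28 and Nrg1, a ligand of Erbb3 and Erbb4, by 0.23, with adjusted p of 0.221 and 0.19 by limma. Groups did not overlap for these 2 of the 7 genes, beside 20.5% of all genes. Egf and Btc differed by -0.04 and 0.01.

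Of the 5 other receptors and co-receptors none passed, and 1 (Kl) lay under an unadjusted p of 0.05, beside 14.4% of all genes. The largest difference was that of Erbb4 at 0.46 (SE 0.22, adjusted p = 0.405 by limma). Kl, which codes for the co-receptor klotho, read 6.74, 6.67 and 6.70 in Klf5-deleted and 7.02, 7.01 and 7.28 in control bladders, and differed by -0.40 (SE 0.09, adjusted p = 0.0748 by limma). The 4 genes of ligand shedding differed by -0.12 (Rhbdf1) to 0.05 (Adam17), with 0 under an unadjusted p of 0.05 by limma.

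Of 18 listed signal transducers 12 were measured, and their differences ran from -0.12 to 0.13, with Sos1, an exchange factor that activates RAS, at 0.13 (SE 0.08, adjusted p = 0.536 by limma). None of the 12 lay under an unadjusted p of 0.05. Among 12 transcriptional targets 9 were lower and 3 higher, where 10674 of all 19938 genes were lower and 9264 higher. None of these targets passed, and 2 (Etv5 and Fos) lay under an unadjusted p of 0.05 by limma, beside 14.4% of all genes. Egr1, an immediate early factor, had the largest difference at -0.27 (SE 0.17, adjusted p = 0.535 by limma), and Etv5, an ETS factor switched on by FGF signals, differed by 0.27 (SE 0.09, adjusted p = 0.231 by limma). Etv4, its paralog, differed by 0.09 and Ccnd1 by 0.12, while Myc differed by -0.23.

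**Figure D3:**
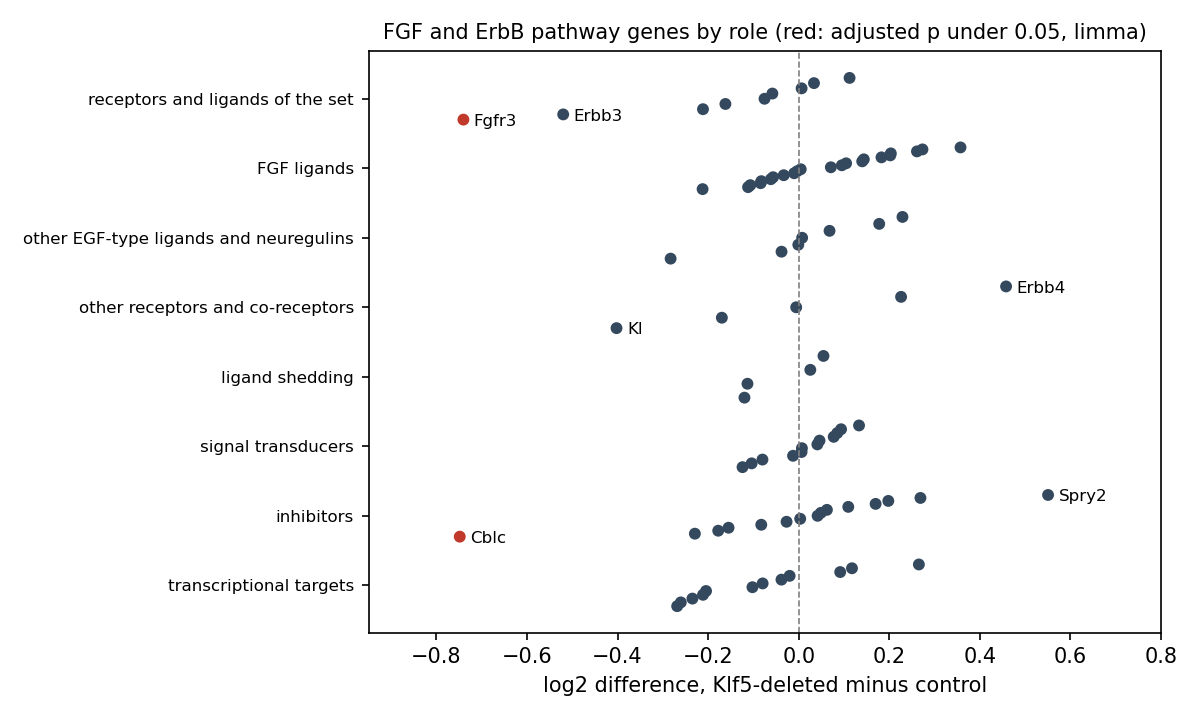
Each point is the log2 difference (Klf5-deleted minus control) of 1 gene, in the top line for the 9 measured receptors and ligands of the set and below for the 77 other pathway genes by role; height within a line only separates the points. Fgfr3 at -0.74 and Cblc at -0.75 are the points past an adjusted p of 0.05 (red), and most other genes lie within 0.3 of 0.

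Markers of epithelium differed between the groups in the same direction as Fgfr3 and Cblc. In the general epithelium list 8 of 10 genes fell and none rose, where 1.59% of all genes fell. The median of the list was -1.51, and it averaged 9.18 to 9.57 in Klf5-deleted and 10.52 to 10.92 in control bladders. Of 7 genes of urothelial differentiation 6 fell, and their average was 8.10 to 8.23 against 10.06 to 10.54. Of 5 basal genes Krt15 fell, and the list averaged 8.84 to 8.96 against 8.96 to 9.71, all of these lists with a measured level on every array. Of 8 smooth muscle genes none passed, but all 8 were lower, 5 at an unadjusted p under 0.05, beside 14.4% of all genes. That list averaged 12.28 to 12.50 in Klf5-deleted and 12.50 to 12.79 in control bladders. Of 5 mesothelial genes Msln and Krt19, which is also an epithelial gene, fell and Wt1 rose by 0.54 (adjusted p = 0.0409 by limma). The part of these tissues in the readings of the set was not tested. Relative to the general epithelium average of the same array, Fgfr3 was higher in the Klf5-deleted bladders, at -0.87 ± 0.29 (SD, n = 3) against -1.49 ± 0.08 (SD, n = 3). That shift of 0.62 had p = 0.1 by the two-sided exact permutation test, or 0.125 adjusted over the 5 comparisons. With 3 against 3 arrays 0.1 is the smallest p possible, so this test could not pass 0.05. Fgfr3 differed by less than the epithelial average in these arrays, but not by less than every marker in it. The 8 markers that fell ran from -1.88 (Spint1) to -1.16 (Esrp1), while Cldn7 differed by -0.76 and Epcam by -0.39. The part of epithelial content in the fall of Fgfr3 was not tested further.

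**Figure D4:**
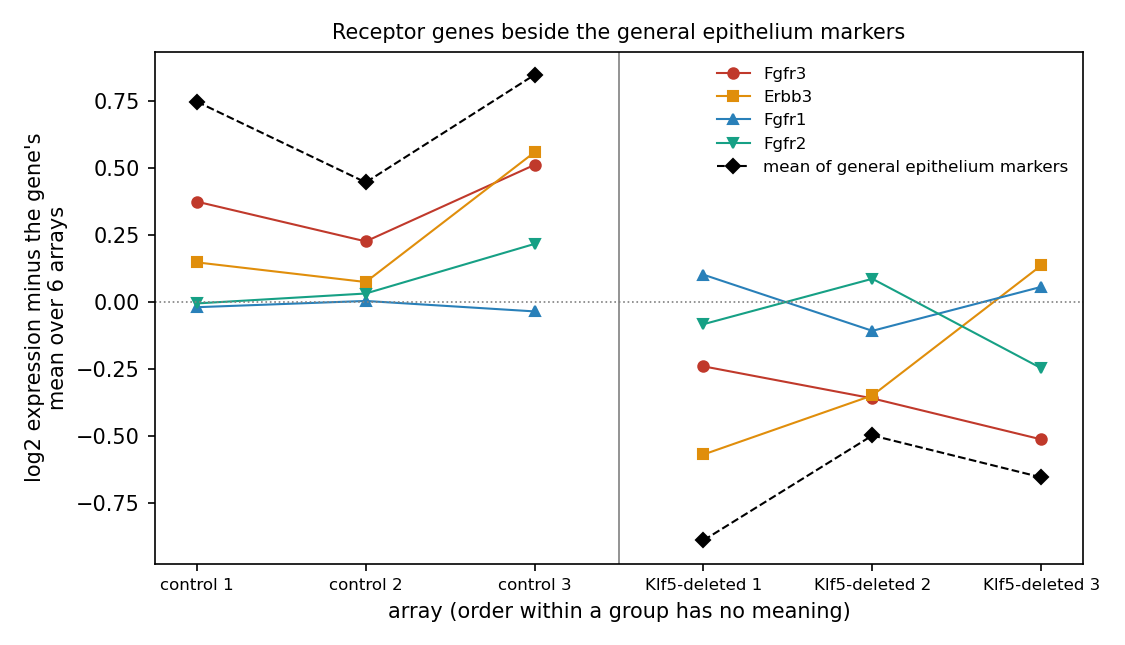
Log2 expression of Fgfr3, Erbb3, Fgfr1 and Fgfr2 and the mean of the 10 general epithelium markers on each array, each minus its own mean over the 6 arrays; lines join arrays of one group only to guide the eye. The epithelium average and Fgfr3 lie above 0 in all 3 controls and below 0 in all 3 Klf5-deleted arrays, Erbb3 does so except on Klf5-deleted 3, and Fgfr1 stays near 0.

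The genes whose profile over the 6 arrays was most like that of Fgfr3 were found by the root mean square difference between profiles, each centred on its own mean, among the other 19937 genes. They were S100a16, a calcium-binding protein gene (0.058), Gpr39, a zinc-sensing receptor gene (0.064), Llgl2, a gene of basolateral polarity (0.074), Mboat1, an acyltransferase gene (0.076), and Plpp2, a phospholipid phosphatase gene (0.076), where the number is that difference in log2 units. S100a16 read 10.08, 9.93 and 9.86 in Klf5-deleted and 10.76, 10.66 and 10.78 in control bladders. These 5 genes were picked for this likeness, so their own differences, from -0.81 for Gpr39 to -0.69 for Mboat1, are given as a description.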

How the data were processed

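The authors deposited 1 log2 expression value per feature and array for 6 Affymetrix Mouse Gene 1.0 ST arrays, made with RMA per the submitters' processing notes; for its version, annotation and build nothing is given in the sources used here. The log2 scale was inferred from the values (3.24 to 14.6). Features with a single gene symbol (21789 of 35557) were used, and the feature with the highest mean stood for a gene, which left 19938 genes. limma 3.58.1 in R 4.3.3 (lmFit, then eBayes without trend, two-sided) compared the genotypes, with Benjamini-Hochberg adjustment over these genes and a threshold of 0.05, after a check on simulated data. Alternatives were the replicate number as a block, eBayes with trend or robust, centring on medians or housekeeping genes, averaged features, brighter genes only, array weights, and leaving out each array. The named genes were the 10 members, Klf5, each pathway gene past the threshold, the 1 with the largest difference per role and the 5 genes most like Fgfr3; other genes, and the skeletal muscle list, were picked with their values in view. The members and lists were chosen with earlier results of these data known. The labels do not say whether pools came from separate litters, so p-values measure the spread between these pools. The number of arrays limits the precision.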

Additional observations from a re-analysis of the deposited data

How the results depend on the processing

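With the replicate number as a block, 0 members passed (Fgfr3 -0.74, adjusted p = 0.0831; Klf5 -0.59, adjusted p = 0.137; both by limma), and 110 genes passed in place of 395. Same-numbered arrays of both groups deviated from their group means with correlations of 0.00915, 0.0313 and 0.0787, so the numbers were not taken to pair them; every array except Klf5-deleted 1 correlated best with its own number. Leaving out 1 array gave 0 to 1 members past the threshold, 0 without Klf5-deleted 2 or control 1, with Fgfr3 at -0.81 to -0.67 and Klf5 at -0.68 to -0.51. The count of other pathway genes was 2, Cblc and Spry2, with robust eBayes, median centring or housekeeping centring. With brighter genes only it was 1, Spry2, since that setting left out Cblc and, among the members, Ereg. Klf5 differed by -0.55 with median centring and did not pass. Signs turned for 2 genes near 0: Erbb2 ran from -0.10 to 0.10 and Fgfr1 from -0.0087 to 0.10 when 1 array was left out. The other 6 measured members kept their sign and did not pass in any alternative run, and the 5 comparisons within arrays kept their sign. For Erbb3, the replicate block gave an SE of 0.088 in place of 0.197 and an adjusted p of 0.114 by limma. Scanner files were not used here, so signal over background is unknown.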
